A study of Mus musculus with 8 samples.

Results

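The matrix metalloproteinases (MMPs), the ADAM and ADAMTS proteases and their tissue inhibitors, the TIMPs, were followed in FCGR4+ and FCGR4- macrophages of epididymal white adipose tissue (eWAT). Every gene of the deposited counts whose mouse symbol is Mmp, Adam, Adamts or Timp followed by a digit was taken, and names ending in -ps were left out. This rule gave 79 genes of 54146, namely 23 *Mmp*, 33 *Adam*, 19 *Adamts* and 4 *Timp* genes, and it used no measured value. Bulk RNA-Seq was available for 8 libraries from 4 mice, with 1 FCGR4+ and 1 FCGR4- library from each mouse. All 4 mice were labelled C57Bl6, had eaten a high-fat diet freely for 24 weeks and then received 30% less food during 2 weeks of stCR, a short caloric restriction. No library from a mouse without stCR belongs to this comparison, and the labels give no age. CD45+ CD11b+ cells negative for CD3, B220, Ly6G and SiglecF were split by surface FCGR4, an activating Fc receptor for IgG, so the populations are gates on total CD11b+ cells rather than cells chosen by a macrophage marker.

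These enzymes use a zinc ion to cut proteins outside the cell or at its surface. Secreted MMPs cut collagens, gelatin, elastin and proteoglycans, whereas membrane-bound MMPs act next to the cell that makes them. ADAMs mostly release membrane proteins such as cytokines and receptors (shedding), and several members have no protease activity and act in adhesion. ADAMTS enzymes trim procollagens and proteoglycans, and TIMPs bind to the active site of these proteases and block it. In adipose tissue the family takes part in the remodelling of matrix around adipocytes and vessels, and macrophages, neutrophils and fibroblasts are all known to make some of its members.

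Total counts per library lay between 35992794 and 66856746, and 3 counts, the least taken as a signal, equalled 0.0439 to 0.0882 CPM (counts per 1000000 counts of the library, scaled for composition). *Fcgr4* itself was at 199.5 ± 42.4 CPM (SD, n = 4) in FCGR4+ and 66.1 ± 18.3 CPM in FCGR4- macrophages, and was higher in FCGR4+ in 4 of 4 mice without overlap (log2 fold change 1.61, SE 0.173, adjusted *P* = 0.0162 by edgeR). The summed level of 12 macrophage markers, among them *Lyz2*, *C1qa* and *Adgre1*, was between 30578 and 55065 CPM in FCGR4+ and between 24400 and 48470 CPM in FCGR4- libraries. *Lyz2* made up most of this sum, with means of 22997 CPM in FCGR4+ and 21402 CPM in FCGR4-. None of the 12 passed the edgeR test (7 were higher at an unadjusted *P* below 0.05, and 7 by DESeq2). For *C1qa* and *C1qb* the FCGR4+ libraries lay wholly above the FCGR4- libraries (0.907% of all genes tested did), and the other markers overlapped. Markers of several other cell types were lower in FCGR4+ libraries. For scale, edgeR called 1.19% of all 17095 genes tested lower and 0.0819% higher. All 10 tested of 11 mast cell and basophil markers fell, with sums of 394.2 to 2169 CPM in FCGR4- and 14.5 to 30.4 CPM in FCGR4+ libraries, as did 7 of 13 fibroblast and preadipocyte markers, 4 of 8 tested neutrophil markers, 4 of 8 dendritic cell markers, 7 of 10 tested T and NK cell markers, 2 of 6 tested B cell markers and 1 of 8 mesothelial markers. No endothelial marker of 7 tested and no adipocyte marker of 8 passed (3 lower and 1 higher, respectively, at an unadjusted *P* below 0.05, and 1 and 0 by DESeq2). The part of these cells in the results that follow was not tested, and in bulk samples fewer cells of a type and less RNA per cell cannot be told apart.

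Of the 79 members, 43 passed the filter on low counts (at least 10 counts in at least 4 libraries) and were tested. In the paired edgeR fit over 17095 genes, 4 members fell in FCGR4+ macrophages at an adjusted *P* below 0.1, and all 4 were secreted MMPs: *Mmp9*, *Mmp3*, *Mmp2* and *Mmp8*. These are 9.30% of the tested members, beside 1.19% of all genes tested. No member was called higher (0 of 43, beside 0.0819% of all genes). At an unadjusted *P* below 0.05, 15 members were lower and 2 were higher, beside 1141 and 530 of all 17095 genes. The median log2 fold change of the tested members was -0.55, beside -0.0025 over all genes tested, and 34 of the 43 values were below 0. A total of 17 members were lower in 4 of 4 mice (10.4% of all genes were) and 1 member, *Adam22*, was higher in 4 of 4 (8.42% of all genes were). The FCGR4+ libraries lay wholly below the FCGR4- libraries for 9 members, namely *Mmp2*, *Mmp3*, *Mmp9*, *Mmp11*, *Mmp19*, *Adam4*, *Adam12*, *Adamts2* and *Timp3* (3.02% of all genes), and wholly above them for none (0.907% of all genes). Of the 43, 29 reached 10 counts in all 8 libraries, 11 did so in more FCGR4- than FCGR4+ libraries and 1 in more FCGR4+ libraries, so these counts describe the members that passed and not the whole family. DESeq2, the tool used by the study, with the same paired model called 11 members lower (4.87% of all genes) and 2 higher (1.12% of all genes).

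**Figure D1:**
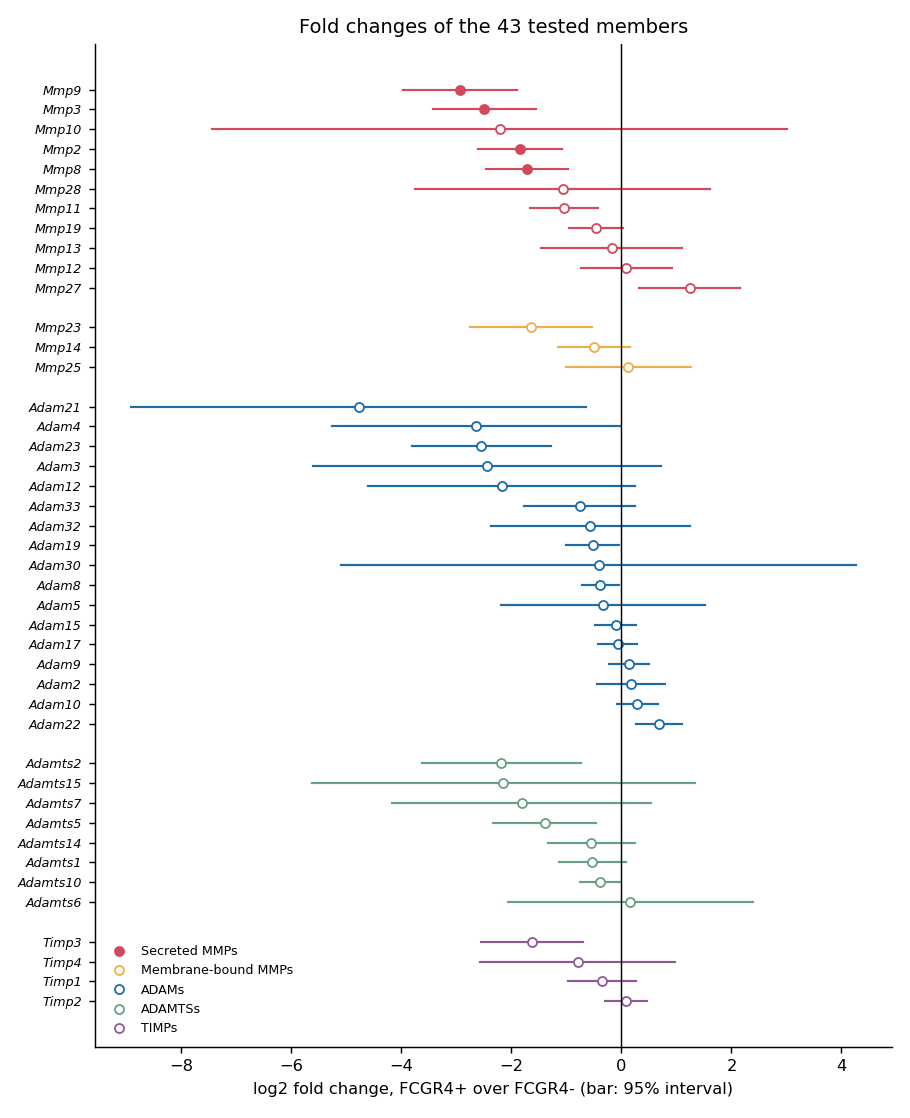
Log2 fold change (FCGR4+ over FCGR4- macrophages, horizontal axis) of the 43 tested members, each with its 95% interval from the paired edgeR fit and coloured by role; filled points passed the adjusted threshold. The 4 filled points are *Mmp9*, *Mmp3*, *Mmp2* and *Mmp8*, all left of 0, and the intervals of low-count members such as *Mmp10*, *Adam21* and *Adam30* are several log2 units wide.

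Levels of different members were compared per length (normalized CPM per kilobase of exon), as the mean over the 8 libraries. *Timp2* was the highest of the 79 at 203 CPM per kilobase over the 8 libraries, and made up between 19.2% and 44.7% of the summed per-length level of all members in a library. *Adam8* was next with 119 CPM per kilobase. They were followed by *Timp1* (48.3), *Adam9* (46.0), *Adam10* (45.5), *Mmp12* (40.2), *Adam15* (29.4), *Mmp8* (19.8), *Adam17* (19.8), *Mmp14* (16.5), *Mmp19* (10.99) and *Mmp9* (7.66 CPM per kilobase). Over the 8 libraries together, *Adam9* and *Adam10* lay within each other's spread, as did *Mmp8*, *Adam17* and *Mmp14*. This order pools populations and mice that differ. *Mmp8* was at 32.3 CPM per kilobase in FCGR4- and at 7.30 in FCGR4+ libraries, where it lay below *Adam17* (19.5), *Mmp14* (12.9) and *Mmp19* (9.47). In FCGR4+ libraries alone *Timp1* (38.3) lay below *Adam10* (49.8) and *Adam9* (48.3), and *Mmp9* was at 1.67 against 13.6 CPM per kilobase in FCGR4-, below *Mmp13* (5.31) and *Mmp2* (1.71). *Timp1* owed its place to mice 3 and 4, and lay above *Timp2* per length in the FCGR4- library of mouse 3. Of the 12 highest members only *Mmp8* and *Mmp9* were called, and 8 of the 12 had a log2 fold change below 0.

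**Figure D2:**
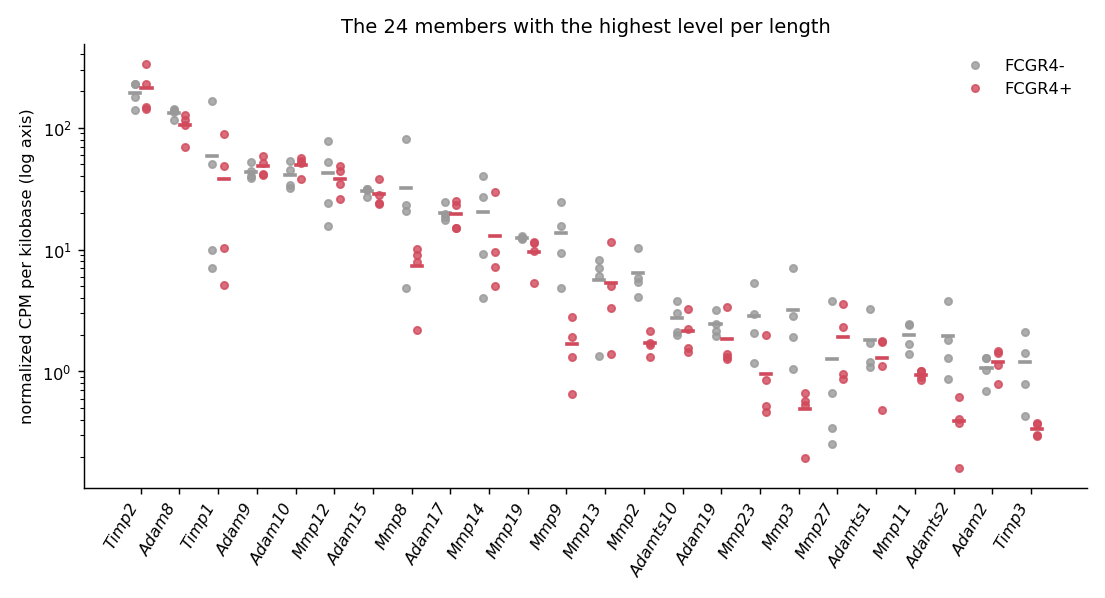
Normalized CPM per kilobase (log axis) of the 24 members with the highest mean level, in the 4 FCGR4- (grey) and 4 FCGR4+ (red) libraries; points are libraries and bars are means. *Timp2* and *Adam8* stand at the top in both populations, and the bars of *Mmp9*, *Mmp2* and *Mmp3* are separated between the populations.

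Among the 16 secreted MMPs, 11 were tested, 4 fell, and the median log2 fold change was -1.06. *Mmp9* encodes gelatinase B, which cuts denatured collagen and type IV collagen and is stored in neutrophil granules as well as made by macrophages. It lies on chromosome 2 of mm10 at chr2:164940780-164955850, plus strand. In mice 1 to 4 it was at 17.2, 32.9, 87.7 and 55.5 CPM in FCGR4- and at 4.63, 6.84, 9.88 and 2.30 CPM in FCGR4+ macrophages. The lowest FCGR4- library lay above the highest FCGR4+ library, and the steepest drop was in mouse 4 (log2 ratio -4.57) and the mildest in mouse 1 (-1.88). The fitted level was 7.67-fold lower in FCGR4+ (log2 fold change -2.94, SE 0.439, 95% interval -3.97 to -1.90, adjusted *P* = 0.0516 by edgeR). Without mouse 2 the adjusted *P* was 0.102, and it was below 0.1 without each of the other mice.

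*Mmp2* encodes gelatinase A, an enzyme of stromal cells that MMP14 activates at the cell surface. It lies at chr8:92827291-92853420, plus strand. The FCGR4- libraries held 19.9, 13.6, 35.1 and 18.4 CPM in mice 1 to 4, and the FCGR4+ libraries of the same mice 5.73, 7.28, 4.47 and 5.58 CPM. The groups did not overlap, and the FCGR4+ values stayed within a 1.63-fold range. *Mmp2* was 3.59-fold lower in FCGR4+ macrophages (log2 fold change -1.85, SE 0.327, adjusted *P* = 0.0722 by edgeR). Without mouse 1 the adjusted *P* was 0.214 and without mouse 4 it was 0.204. It was the only member called when the mouse was not in the model (adjusted *P* = 0.0877 with no replicate block), where *Mmp9* had 0.107, *Mmp3* 0.180 and *Mmp8* 0.589.

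*Mmp3* encodes stromelysin 1, which cuts proteoglycans and activates other MMPs. Its levels were low, at 5.18, 1.88, 12.6 and 3.48 CPM in FCGR4- and at 1.196, 0.353, 0.958 and 1.04 CPM in FCGR4+ macrophages of mice 1 to 4. Every FCGR4+ library lay below every FCGR4- library. The fitted level was 5.63-fold lower (log2 fold change -2.49, SE 0.396, adjusted *P* = 0.0580 by edgeR). The call was kept without mouse 3 (adjusted *P* = 0.0805) and lost without mouse 1 (0.159), mouse 2 (0.149) or mouse 4 (0.107). Of the 50-base words of *Mmp3*, 8.39% also occur in *Mmp10*, so a part of its reads can be shared between these genes.

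*Mmp8* encodes neutrophil collagenase, a granule enzyme that cuts fibrillar collagen. In FCGR4- macrophages it was at 11.8, 194, 56.7 and 50.4 CPM in mice 1 to 4, a 16.4-fold range, and in FCGR4+ at 5.29, 24.5, 19.1 and 21.9 CPM. The groups overlapped, because both libraries of mouse 1 were low, but the FCGR4+ library was the lower one in 4 of 4 mice. *Mmp8* was 3.30-fold lower (log2 fold change -1.72, SE 0.316, adjusted *P* = 0.0831 by edgeR), with the steepest ratio in mouse 2 (-2.99). The call was kept without mouse 2 (adjusted *P* = 0.0727) and lost without mouse 1 (0.165), mouse 3 (0.131) or mouse 4 (0.164).

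**Figure D3:**
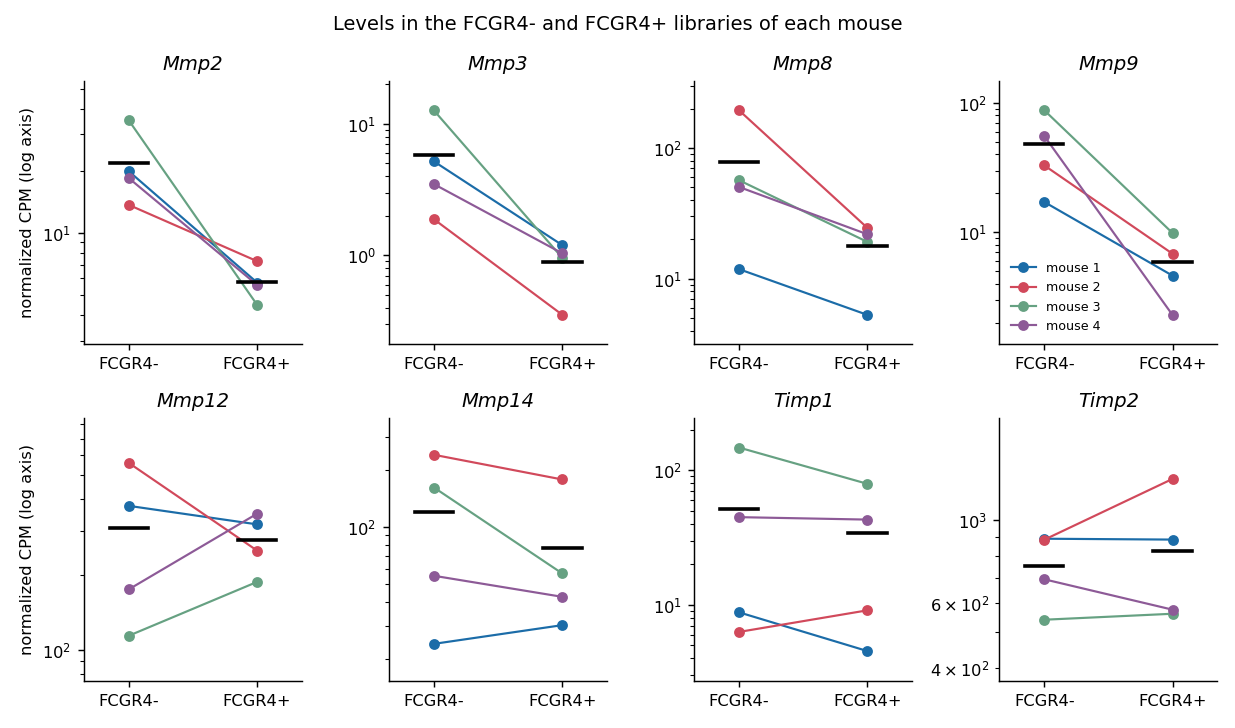
Normalized CPM (log axes that differ between panels) of 8 members in the FCGR4- and FCGR4+ library of each mouse, joined by a line; black bars are means. In the upper row every line falls from FCGR4- to FCGR4+, whereas in the lower row the lines of *Mmp12*, *Mmp14*, *Timp1* and *Timp2* run in both directions and the mice differ from each other.

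Values of other cells moved alongside. The summed level of the 9 neutrophil markers was 370.4 to 2330 CPM in FCGR4- and 116.2 to 528 CPM in FCGR4+ libraries and was lower in FCGR4+ in 4 of 4 mice, with *S100a8*, *S100a9*, *Cxcr2* and *Retnlg* called. The log2 ratio of that sum was -1.67, -1.20, -2.14 and -2.03 in mice 1 to 4, beside -1.88, -2.26, -3.14 and -4.57 for *Mmp9* and -1.16, -2.99, -1.57 and -1.20 for *Mmp8*. The sum depends on *Csf3r*, a receptor that monocytes also make, which was at 113.3 CPM in FCGR4+ and 110.0 CPM in FCGR4- macrophages of mouse 2. With *Csf3r* left out, which was decided once these values were known, the ratios were -2.18, -2.34, -2.11 and -2.27, so the order of the mice by this sum rests on 1 gene. *S100a8* (mean 457 CPM) and *S100a9* (254 CPM) had the highest FCGR4- levels of the list. Not every marker was called. *Ngp* had log2 ratios of 0.61, -3.58, 0.84 and -4.10 in mice 1 to 4, and *Ltf* 1.07, -5.31, -1.36 and -0.81. Neither was called by edgeR or DESeq2, and *Camp* did not reach the filter. *Ly6g*, whose protein the sort was gated against, was at 0.511 ± 0.578 CPM in FCGR4+ and 2.08 ± 2.29 CPM in FCGR4- libraries. No neutrophil or fibroblast marker was at 0 in all libraries, and the part of these cells in the *Mmp8* and *Mmp9* results was not tested.

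The 13 fibroblast and preadipocyte markers summed to 907.2 to 2359 CPM in FCGR4- and 658.2 to 745.2 CPM in FCGR4+ libraries, with no overlap. *Pdgfra*, *Pdgfrb*, *Cd34*, *Pi16*, *Lum*, *Col1a2* and *Col3a1* were called lower. The log2 ratio of the sum was -1.63, -0.45, -1.84 and -0.90 in mice 1 to 4, and that of *Mmp2* was -1.79, -0.90, -2.96 and -1.71. Without *Gsn*, the marker with the highest level, the sum gave -2.62, -0.85, -2.42 and -1.27, an alternative also chosen after the values were seen. With and without *Gsn* the sum was mildest in mouse 2, and so were *Mmp2*, *Timp3* and *Adamts2*, whereas *Mmp3* (-2.08, -2.30, -3.67 and -1.71), *Mmp23* (-2.45, -1.31, -2.61 and -0.07) and *Adamts5* (-2.44, -1.51, -1.50 and -0.03) were mildest in mouse 4. Which mouse was lowest changed with *Gsn*, and with 4 mice the order is given with no test. The CD45+ CD11b+ gate is meant to leave out fibroblasts, and their part in the *Mmp2* and *Mmp3* results was not tested.

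**Figure D4:**
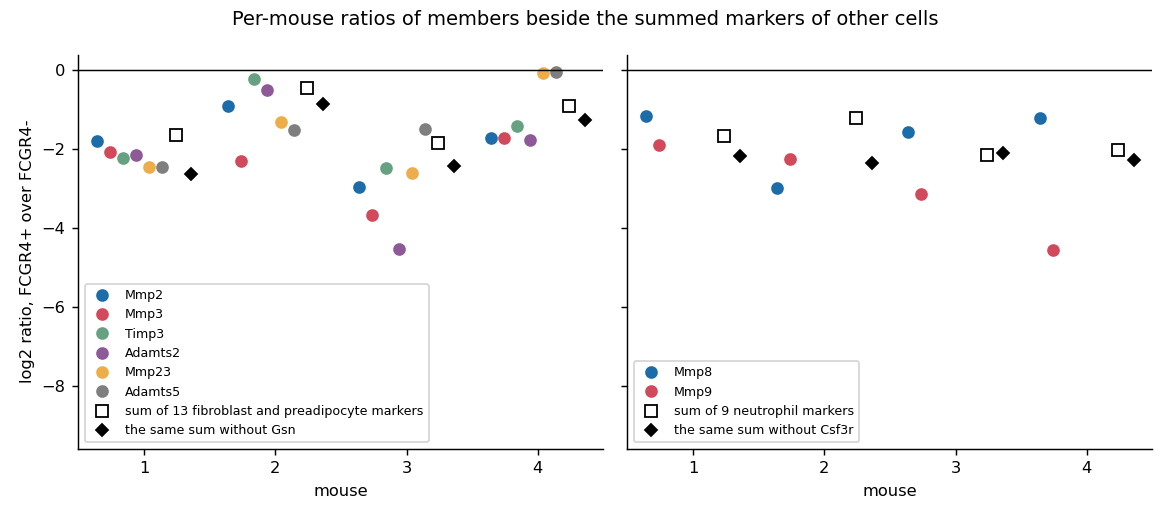
Per-mouse log2 ratio (FCGR4+ over FCGR4-, vertical axis) of members beside the summed markers of fibroblasts (left) and neutrophils (right), with all markers (open squares) and without *Gsn* or *Csf3r* (black diamonds). All points lie below 0; on the left *Mmp2*, *Timp3*, *Adamts2* and both sums are mildest in mouse 2 and *Mmp3*, *Mmp23* and *Adamts5* in mouse 4, and on the right the sum of mouse 2 moves from -1.20 to -2.34 when *Csf3r* is left out.

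*Mmp12*, the macrophage elastase, was the secreted MMP with the highest mean level per length over the 8 libraries and did not have one direction. *Mmp8* was above it per length in the FCGR4- libraries of mice 2 and 3, and *Mmp9* in that of mouse 3. It was at 377, 559, 114 and 175 CPM in FCGR4- and at 318, 250, 187 and 351 CPM in FCGR4+ macrophages of mice 1 to 4. It was lower in FCGR4+ in mice 1 and 2 and higher in mice 3 and 4, which carry another animal ID prefix in the labels. The log2 fold change was 0.08 (95% interval -0.74 to 0.91, adjusted *P* = 0.944 by edgeR). In mice 1 and 2 alone it was -0.71, and the sign also turned with no replicate block (-0.15) and with library size alone as the scaling (-0.0066).

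The collagenase gene *Mmp13* was at 3.55, 16.1, 21.9 and 19.0 CPM in FCGR4- and at 8.80, 3.70, 13.5 and 30.8 CPM in FCGR4+ libraries, higher in mice 1 and 4 and lower in mice 2 and 3 (log2 fold change -0.17, 95% interval -1.45 to 1.11). Its sign turned without mouse 2 (0.43) and without mouse 3 (0.03). *Mmp19*, which cuts basement membrane proteins, held 44.3, 45.8, 43.8 and 42.9 CPM in FCGR4- and 40.6, 39.9, 18.7 and 34.7 CPM in FCGR4+ libraries. These groups did not overlap, yet the log2 fold change of -0.46 (95% interval -0.95 to 0.03) did not pass the test (adjusted *P* = 0.527 by edgeR), and most of it came from mouse 3. Other genes lie over 28.3% of the exonic bases of *Mmp19*, and strand was not used in counting, so some of its reads may belong to them.

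*Mmp11*, stromelysin 3, and *Mmp27* were called by DESeq2 and not by the paired edgeR test, although edgeR called *Mmp11* with its newer quasi-likelihood method (adjusted *P* = 0.0999) and *Mmp27* with no filter (0.0618). For *Mmp11* the log2 fold change was -1.04 (edgeR adjusted *P* = 0.201, DESeq2 adjusted *P* = 0.0203), with FCGR4+ levels of 2.38 to 2.78 CPM below FCGR4- levels of 3.85 to 6.84 CPM. The fitted paired fold put *Mmp27* 2.36-fold higher in FCGR4+ (log2 fold change 1.24, DESeq2 adjusted *P* = 0.0612, and 0.330 in the edgeR fit). Its FCGR4+ library was the higher one in mice 1, 3 and 4 (2.09, 1.93 and 5.14 against 0.753, 0.559 and 1.48 CPM), whereas mouse 2 had 7.92 CPM in FCGR4+ and 8.35 CPM in FCGR4- macrophages. *Mmp10*, another stromelysin, and *Mmp28* were below 1 CPM in every library, and *Mmp10* had 0 counts in 3 of 8 libraries.

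Several of these genes are neighbours on chromosome 9. In the deposited annotation *Mmp13*, *Mmp12*, *Mmp1b*, *Mmp3*, *Mmp1a*, *Mmp10*, *Mmp8*, *Mmp27*, *Mmp20* and *Mmp7* follow each other in this order, with *Mmp3* at chr9:7445822-7455975 and *Mmp8* at chr9:7558456-7568485, both on the plus strand. *Mmp3* and *Mmp8* fell, *Mmp12* and *Mmp13* differed in direction between mice, and *Mmp27* had a fold change above 0 that did not pass the edgeR test. *Mmp1a*, *Mmp1b*, *Mmp20* and *Mmp7* did not reach the filter.

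The promoters of 4 of these neighbours are shown because 2 of the genes fell and 2 did not have one direction. Each is the 250 bases before the RefSeq start on the plus strand of GRCm38.p6, read 5′ to 3′, with capitals marking an AP-1 motif (TGANTCA, where N is any base) or a TATA box (TATAAA). The windows are chr9:7445572-7445821 for *Mmp3*, chr9:7558179-7558428 for *Mmp8*, chr9:7344147-7344396 for *Mmp12* and chr9:7272264-7272513 for *Mmp13*.
*Mmp3*: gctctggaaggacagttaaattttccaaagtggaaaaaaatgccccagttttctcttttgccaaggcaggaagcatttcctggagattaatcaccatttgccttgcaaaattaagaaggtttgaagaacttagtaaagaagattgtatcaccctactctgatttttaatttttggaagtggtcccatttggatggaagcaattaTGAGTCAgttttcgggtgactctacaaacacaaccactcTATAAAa
*Mmp8*: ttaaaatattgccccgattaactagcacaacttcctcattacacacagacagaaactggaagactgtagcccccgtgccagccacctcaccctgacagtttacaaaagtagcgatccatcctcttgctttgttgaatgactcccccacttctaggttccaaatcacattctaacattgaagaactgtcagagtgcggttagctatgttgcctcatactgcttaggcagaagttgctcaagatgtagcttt
*Mmp12*: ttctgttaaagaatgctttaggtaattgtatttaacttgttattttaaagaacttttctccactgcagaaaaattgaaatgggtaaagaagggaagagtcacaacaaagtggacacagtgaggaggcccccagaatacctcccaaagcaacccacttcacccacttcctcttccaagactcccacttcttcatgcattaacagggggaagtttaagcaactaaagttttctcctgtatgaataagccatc
*Mmp13*: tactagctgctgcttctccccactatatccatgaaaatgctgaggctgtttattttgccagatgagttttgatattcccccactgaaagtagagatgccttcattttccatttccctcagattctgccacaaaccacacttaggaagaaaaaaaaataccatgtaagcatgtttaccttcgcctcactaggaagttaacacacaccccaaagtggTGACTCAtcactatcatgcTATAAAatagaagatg

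Both motifs stood in the window of *Mmp3*, the AP-1 motif with its first base at -46 and the TATA box at -7 from the start, and in that of *Mmp13*, at -35 and -16. Neither motif was in the windows of *Mmp8* and *Mmp12*. Thus, among the 4 shown, 1 gene that fell and 1 that did not have one direction carried both letter strings, and 1 of each kind carried neither. Of the tested neighbours not shown, *Mmp10* carried both, with the AP-1 motif at -63 and the TATA box at -29, and *Mmp27* carried neither. On either strand, TGANTCA was in 6.75% and TATAAA in 12.4% of 32851 promoter windows of this length, and each was in 12 of the 54 members with a window. GGGCGG, the GC box, was in 32.7% of all windows, in 20 of those 54 and in none of the 4 shown. A match is a run of letters and not a site shown to be bound. *Mmp2* and *Mmp9* had no entry in the promoter table.

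**Figure D5:**
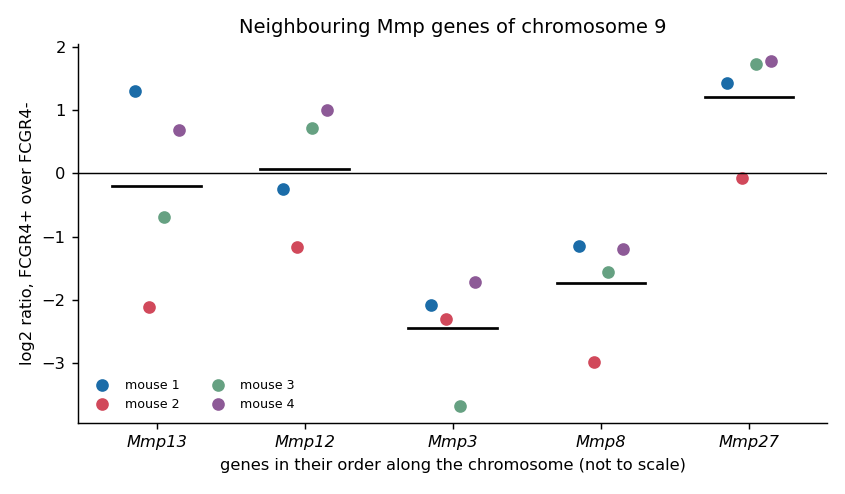
Per-mouse log2 ratio (FCGR4+ over FCGR4-, vertical axis) of 5 neighbouring *Mmp* genes of chromosome 9 in their order; points are mice and black bars are means, and *Mmp10* is left out because it had 0 counts in 3 libraries. All points of *Mmp3* and *Mmp8* lie below 0, those of *Mmp13* and *Mmp12* lie on both sides, and those of *Mmp27* lie above 0 except in mouse 2.

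Of the 7 membrane-bound MMPs, 3 were tested and none passed the paired edgeR test (1, *Mmp23*, was lower at an unadjusted *P* below 0.05 and by DESeq2). *Mmp14*, the membrane collagenase that activates MMP2, was at 24.0, 241, 162 and 55.1 CPM in FCGR4- and at 30.2, 178, 56.6 and 42.6 CPM in FCGR4+ macrophages of mice 1 to 4. The mice differed more than the populations did, with a 10.02-fold range among FCGR4- and a 5.90-fold range among FCGR4+ libraries. *Mmp14* was lower in FCGR4+ in 3 of 4 mice (log2 fold change -0.50, 95% interval -1.15 to 0.16, adjusted *P* = 0.595 by edgeR). *Mmp23* was lower in 4 of 4 mice (log2 fold change -1.65, edgeR adjusted *P* = 0.271, DESeq2 adjusted *P* = 0.0112), although by only -0.07 in mouse 4, and with no filter edgeR called it (adjusted *P* = 0.00425). *Mmp25*, a leukocyte enzyme anchored by a glycolipid, was at 0.497 to 2.15 CPM (log2 fold change 0.13, SE 0.480).

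Of the 33 ADAMs, 17 were tested, none passed the edgeR test (5 were lower and 1 higher at an unadjusted *P* below 0.05, and 2 and 1 by DESeq2), and their median log2 fold change was -0.41. By level per length, *Adam8*, *Adam9*, *Adam10*, *Adam15* and *Adam17* were the 5 highest. *Adam8*, a sheddase of myeloid cells, was at 644, 663, 535 and 626 CPM in FCGR4- and at 539, 589, 320 and 490.5 CPM in FCGR4+ macrophages of mice 1 to 4. It was the lower one in FCGR4+ in 4 of 4 mice, with overlap of the groups, and the log2 fold change was -0.38 (95% interval -0.72 to -0.04, adjusted *P* = 0.453 by edgeR).

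*Adam17*, which encodes the sheddase of TNF and of the IL-6 receptor, showed 141, 177, 132 and 124 CPM in FCGR4- and 179, 166, 107 and 108 CPM in FCGR4+ libraries. The groups overlapped, and the interval of the log2 fold change ran from -0.42 to 0.29 around -0.06. *Adam10*, the sheddase of Notch receptors and CX3CL1, had 166, 264, 222 and 156 CPM in FCGR4- and 279, 261, 252 and 188 CPM in FCGR4+ libraries. It was higher in FCGR4+ in mice 1, 3 and 4 and nearly level in mouse 2 (log2 fold change 0.29, 95% interval -0.08 to 0.67, adjusted *P* = 0.585 by edgeR).

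*Adam9* stood at 164, 215, 181 and 159 CPM in FCGR4- and at 243, 210, 173 and 169 CPM in FCGR4+ libraries. Its groups overlapped (log2 fold change 0.14, 95% interval -0.22 to 0.50), and the sign turned without mouse 1 (-0.0055). *Adam15*, an adhesion protease that binds integrins, was at 165, 195, 191 and 192 CPM in FCGR4- and at 174, 235, 148 and 146 CPM in FCGR4+ libraries. It was higher in FCGR4+ in mice 1 and 2 and lower in mice 3 and 4 (log2 fold change -0.11, 95% interval -0.48 to 0.27). Another gene covers 20.6% of its exonic bases.

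*Adam22* and *Adam23* encode members without protease activity that are known as partners of LGI proteins in the nervous system. *Adam22* was at 15.2, 4.62, 6.996 and 4.65 CPM in FCGR4- and at 20.6, 7.25, 10.995 and 9.25 CPM in FCGR4+ macrophages, and was the single member higher in 4 of 4 mice. The mice differed enough for the groups to overlap, and only DESeq2 called it (log2 fold change 0.68, 95% interval 0.26 to 1.10, edgeR adjusted *P* = 0.220, DESeq2 adjusted *P* = 0.0435). *Adam23* was at 4.27, 1.41, 2.07 and 0.380 CPM in FCGR4- and at 0.539, 0.146, 0.303 and 0.187 CPM in FCGR4+ macrophages. It was lower in 4 of 4 mice (log2 fold change -2.55, edgeR adjusted *P* = 0.130, DESeq2 adjusted *P* = 0.000768), and edgeR called it with library size alone as the scaling, with the newer quasi-likelihood method and with no filter. *Adam21*, best known from testis, was called lower by DESeq2 (adjusted *P* = 0.00547, and 0.434 by the paired edgeR test) and by edgeR with no filter (0.0419), had 0 counts in 3 of 4 FCGR4+ libraries and stayed at or below 1.27 CPM. The other 9 tested ADAMs (*Adam2*, *Adam3*, *Adam4*, *Adam5*, *Adam12*, *Adam19*, *Adam30*, *Adam32* and *Adam33*) had log2 fold changes from -2.65 to 0.17 and were called by neither tool.

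Among the 19 ADAMTS genes, 8 were tested, none passed the paired edgeR test (3 were lower at an unadjusted *P* below 0.05, and 2 by DESeq2), and 7 of the 8 log2 fold changes were below 0 (median -0.97). *Adamts2*, the procollagen N-proteinase, was at 17.0, 8.08, 35.6 and 12.1 CPM in FCGR4- and at 3.81, 5.76, 1.52 and 3.53 CPM in FCGR4+ macrophages of mice 1 to 4. The groups did not overlap, and the per-mouse log2 ratio ran from -4.52 in mouse 3 to -0.49 in mouse 2 (log2 fold change -2.18, SE 0.612, edgeR adjusted *P* = 0.262, DESeq2 adjusted *P* = 0.000729). By edgeR it was called with the newer quasi-likelihood method (adjusted *P* = 0.0931) and with no filter (1.56e-05). Its log2 fold change was -1.50 without mouse 3 and -2.78 without mouse 2. *Adamts5*, an aggrecanase, was at 9.52, 2.73, 15.1 and 4.42 CPM in FCGR4- and at 1.72, 0.935, 5.33 and 4.31 CPM in FCGR4+ libraries. It was lower in 4 of 4 mice, by -0.03 in mouse 4, and the groups overlapped (log2 fold change -1.39, edgeR adjusted *P* = 0.271, DESeq2 adjusted *P* = 0.0180, and 0.00787 by edgeR with no filter). The versicanase gene *Adamts1* was at 9.02, 6.38, 17.1 and 5.82 CPM in FCGR4- and at 9.30, 5.86, 9.45 and 2.57 CPM in FCGR4+ libraries (log2 fold change -0.53, 95% interval -1.13 to 0.08). *Adamts6*, *Adamts7*, *Adamts10*, *Adamts14* and *Adamts15* had log2 fold changes from -2.15 to 0.16 and were called by neither tool. With no filter edgeR also called *Adamts16* lower, which did not reach the filter of the main test. The fibroblast marker sum, given above, was lower in the same libraries, and its part in the ADAMTS values was not tested.

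All 4 TIMPs were tested and none passed the paired edgeR test (1, *Timp3*, was lower at an unadjusted *P* below 0.05 and by DESeq2). *Timp2*, which inhibits MMPs and also helps MMP14 to activate MMP2, was at 892, 887, 539 and 694 CPM in FCGR4- and at 888, 1294, 560 and 574 CPM in FCGR4+ macrophages of mice 1 to 4. Only mouse 2 differed by more than a log2 ratio of 0.3 in either direction, and the log2 fold change was 0.08 (95% interval -0.30 to 0.46, adjusted *P* = 0.877 by edgeR), with a turn of sign to -0.01 under library size alone. *Timp1*, an inhibitor induced by inflammatory signals, split by mouse. Its levels were 8.79 and 6.29 CPM in the FCGR4- and 4.53 and 9.10 CPM in the FCGR4+ libraries of mice 1 and 2, but 148 and 44.9 CPM in the FCGR4- and 79.3 and 43.01 CPM in the FCGR4+ libraries of mice 3 and 4. The range over mice was 23.5-fold in FCGR4- and 17.5-fold in FCGR4+ macrophages, while the log2 fold change between the populations was -0.36 (95% interval -0.98 to 0.26). Mice 1 and 2 differ from mice 3 and 4 in their animal ID prefix, and what the prefix stands for is not given in the labels.

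*Timp3*, the inhibitor that stays bound to matrix and also blocks ADAM17, was at 11.6, 3.50, 17.2 and 6.48 CPM in FCGR4- and at 2.46, 2.99, 3.05 and 2.41 CPM in FCGR4+ macrophages. The FCGR4+ libraries lay within a 1.27-fold range and all below the FCGR4- libraries, which spread over a 4.92-fold range. The log2 fold change was -1.62 (SE 0.396, edgeR adjusted *P* = 0.185, DESeq2 adjusted *P* = 0.00241), and without mouse 2 the adjusted *P* by edgeR was 0.0846. It was 0.0583 with the newer quasi-likelihood method and 0.000629 with no filter. *Syn3*, whose gene contains *Timp3*, covers 21.3% of its exonic bases. *Timp4* was at 1.599, 0.794, 1.06 and 0.249 CPM in FCGR4- and at 0.539, 0.146, 0.734 and 0.684 CPM in FCGR4+ libraries, lower in mice 1, 2 and 3 and higher in mouse 4 (log2 fold change -0.79, 95% interval -2.56 to 0.98). It was -1.47 without mouse 4 and -0.27 without mouse 2.

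The remaining 36 members did not reach the filter. *Adam6b* had no count in any library, and 14 of the 36, *Adam6b* included, stayed below 10 counts in every library. They are *Adam6a*, *Adam6b*, *Adam18*, *Adam26b*, *Adam34*, *Adam39*, *Adamts8*, *Adamts19*, *Adamts20*, *Mmp1a*, *Mmp1b*, *Mmp20*, *Mmp21* and *Mmp24*. The highest single count among the 36 was 138, for *Adamts4* in the FCGR4- library of mouse 3, where the other libraries had between 0 and 36 counts. Counts of 132 for *Adamts16* and 86 for *Adam1a* also came from that library, and 121 for *Adam7* from the FCGR4- library of mouse 4. For *Adam1a*, other genes lie over 63.7% of the exonic bases. The rest were *Mmp7*, *Mmp15*, *Mmp16*, *Mmp17*, *Adam1b*, *Adam11*, *Adam20*, *Adam24*, *Adam25*, *Adam26a*, *Adam28*, *Adam29*, *Adamts3*, *Adamts9*, *Adamts12*, *Adamts13*, *Adamts17* and *Adamts18*. *Adam20*, *Adam25* and *Adam39* share more than 30% of their 50-base words with another gene, as do *Adam26a* and *Adam26b*, so a read pair that maps to several copies is counted at each of them.

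Partners of these proteases were followed in 4 lists written by hand. Over all 17095 genes tested, 1.19% were called lower by edgeR and 4.87% by DESeq2. Of these genes, 8595 had a log2 fold change below 0 and 1141 were lower at an unadjusted *P* below 0.05 by edgeR. Of 25 activators and inhibitors, 22 were tested and 1 fell, *Plat*, which encodes tissue plasminogen activator (11.2 ± 6.45 CPM in FCGR4- and 1.86 ± 1.05 CPM in FCGR4+, log2 fold change -2.55, adjusted *P* = 0.00823 by edgeR). The median of this list was -0.20. DESeq2 called 3 of the 22 lower, and 5 were lower and 1 higher at an unadjusted *P* below 0.05 by edgeR. *Furin*, the convertase that activates MMP14 and the ADAMs, was at 120.6 ± 54.2 CPM in FCGR4- and 78.2 ± 24.4 CPM in FCGR4+ (adjusted *P* = 0.600), and *Rhbdf2*, the carrier of ADAM17 to the surface, at 26.1 ± 5.81 and 18.4 ± 6.37 CPM (adjusted *P* = 0.497). *Plg* was at 0 in all libraries.

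Of 11 astacin proteases and ADAMTS-like proteins, 7 were tested and *Bmp1*, the procollagen C-proteinase, fell from 9.48 ± 7.97 to 1.21 ± 0.396 CPM (log2 fold change -2.72, adjusted *P* = 0.0427 by edgeR). DESeq2 called 3 of the 7 lower, and 4 were lower at an unadjusted *P* below 0.05 by edgeR. Among 20 surface proteins known to be shed by ADAM10 or ADAM17, 19 were tested. *Cd163*, the haemoglobin scavenger receptor, was among those that fell (log2 fold change -0.96, adjusted *P* = 0.0602 by edgeR). *Tnf* was at 19.0 ± 9.28 CPM in FCGR4- and 14.9 ± 6.56 CPM in FCGR4+ (adjusted *P* = 0.648), and the median of the 19 was -0.30.

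Among 18 matrix proteins cut by MMPs or ADAMTS, 14 were tested, all 14 log2 fold changes were below 0 with a median of -1.54, and 6 fell by edgeR. DESeq2 called 10 lower, and 10 were lower at an unadjusted *P* below 0.05 by edgeR. The 6 called by edgeR were the collagen genes *Col3a1* (log2 fold change -2.11), *Col1a2* (-2.07) and *Col4a1* (-2.37) and the proteoglycan genes *Lum* (-1.65), *Vcan* (-1.44) and *Bgn* (-1.75). *Fn1*, fibronectin, was at 713.6 ± 546.5 CPM in FCGR4+ and 1157 ± 773.9 CPM in FCGR4- libraries and did not pass the test (adjusted *P* = 0.659). *Col3a1*, *Col1a2* and *Lum* are also on the fibroblast list, so these counts are not separate from it. By edgeR, 0 genes of the 4 lists were called higher in FCGR4+ macrophages, with 1 each in 2 of the lists higher at an unadjusted *P* below 0.05, and 1 (*Mertk*) by DESeq2.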

How the data were processed

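Bulk RNA-Seq libraries of FCGR4+ and FCGR4- cells of 4 mice were used. The authors aligned reads to mm10 with STAR 2.6.0 and counted read pairs per gene with featureCounts 1.6.3 against GENCODE M18. A pair with several mapping places entered the count of every one of them, and strand was ignored. The deposited values are unnormalized counts; the gene length is also the authors'. Of the per-sample columns, none was left out. Rows without a gene name numbered 0, and mitochondrial genes took 4.13% to 9.88% of counts.

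Genes reaching 10 counts in 4 or more of the 8 libraries were scaled by TMM and tested with edgeR 4.0.16 (R 4.3.3, glmQLFit and glmQLFTest with default settings). The mouse was a block, and Benjamini-Hochberg adjustment ran over all 17095 genes at a threshold of 0.1. The study also had the mouse in its model, but its test was DESeq2 and not edgeR. The SE of a log2 fold change is its size over the square root of the F statistic. The libraries pair because they come from the same animal; deviations from the group means correlated at 0.291 to 0.428 within a mouse (median -0.0615 between mice). No 2 libraries of the same population were alike within counting noise. Per-mouse log2 ratios use a prior count of 2, and intervals are 95%. *P* values set the fitted paired fold change against the spread that is left in these 4 mice after the mouse block.

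Values in all libraries are given for every called member, the 12 with the highest level per length, all TIMPs and a list of members (*Mmp2*, *Mmp9*, *Mmp12*, *Mmp13*, *Mmp14*, *Mmp19*, *Adam8*, *Adam9*, *Adam10*, *Adam15*, *Adam17*, *Adamts1*, *Adamts2* and *Adamts5*), with those called by DESeq2 (1.42.0) and not by this edgeR fit also named. The members, lists and tests were chosen with earlier results of these data known. Promoters are from RefSeq (GRCm38.p6; 54 of 79 members matched by symbol). Shared 50-base words and overlaps used a later GENCODE annotation of the same build. One gene of the list of shed surface proteins is not reported here. The scripts were tested on simulated data. Alternatives were no replicate block, DESeq2, the newer quasi-likelihood method, a threshold of 0.05, other filters, scaling by RLE or by library size alone, each mouse left out and each animal ID prefix alone.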

Additional observations from a re-analysis of the deposited data

Results flagged for a closer look

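Of 78 groups of 4 values examined among the named members, 5 held a value whose gap to the others was large beside the whole range of the group, where chance gives about 1 in 20, or 3.9 groups. The values below therefore stand near the number that chance gives.

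*Adam15* in the FCGR4- library of mouse 1 was at 164.8 CPM, beside 191.1 to 194.8 CPM in the other FCGR4- libraries (gap over range 0.8785). The per-mouse log2 ratio of *Mmp19* was -1.23 in mouse 3 and -0.31 to -0.12 in the others (0.8339). *Adam21* was at 0.395 CPM in the FCGR4+ library of mouse 2 and at 0 in the other FCGR4+ libraries (gap over range 1). For *Adam23* the log2 ratio was -0.90 in mouse 4 and between -2.99 and -2.64 in the others (0.8291). *Mmp27* was at 8.35 CPM in the FCGR4- library of mouse 2 and at 0.559 to 1.48 CPM in the other FCGR4- libraries (0.8821).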

How the results depend on the processing

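The number of members called lower (4) was 4 when scaled by RLE, 4 when 10 counts were asked of every library, and 5 with library size alone. It was 1 with no replicate block, 11 with DESeq2, 8 with the newer quasi-likelihood method, 11 with no filter, 0 at a threshold of 0.05, 1 with mice 1 and 2 alone, 1 with mice 3 and 4 alone, and 1 to 3 with a mouse left out. The number called higher (0) became 2 with DESeq2 and 1 with no filter, and stayed 0 with a mouse left out. Over all genes, 203 were called lower. This count was 47 with no replicate block, 832 with DESeq2, 575 with the newer method, 895 with no filter, 74 at 0.05, 106 with mice 1 and 2 alone, 84 with mice 3 and 4 alone and 82 to 154 with a mouse left out. For the 14 called higher the counts were 1, 192, 57, 159, 2, 7, 29 and 2 to 9 in the same order, and 8 with library size alone. The cause of these moves was not tested, except that fits with mice left out hold fewer samples. *Adam21*, *Adam23* and *Timp4* had too few counts for the filter on every library.

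Of 361 fits of named members under alternatives, 301 kept their direction and side of the threshold, 22 lost and 22 gained a call, and 16 turned sign, all of the last in members that were not called. *Adam15* became 0.17 and *Adam17* 0.13 in mice 1 and 2 alone, *Adam9* -0.0152, *Timp2* -0.13 and *Timp4* 0.42 in mice 3 and 4 alone. *Mmp12* became -0.15 with no replicate block, -0.0066 with library size alone, -0.15 without mouse 3, -0.23 without mouse 4 and -0.71 in mice 1 and 2 alone. *Mmp13* became 0.43 without mouse 2 and 0.03 without mouse 3, *Timp2* -0.0116 with library size alone and -0.0835 without mouse 2, *Adam17* 0.0037 without mouse 3 and *Adam9* -0.0055 without mouse 1. With a mouse left out, *Adam17* ran from -0.201 to 0.0037, *Adam9* from -0.0055 to 0.194, *Mmp12* from -0.233 to 0.487, *Mmp13* from -0.683 to 0.429 and *Timp2* from -0.0835 to 0.196. The median of all genes moved to -0.16 with no filter and to -0.09 with library size alone.

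With 4 mice and 3 counts equal to up to 0.0882 CPM, differences of members near or below 1 CPM were poorly resolved. Intervals are for the fitted paired fold change, and single mice can lie outside them. For *Mmp9* the interval was -3.97 to -1.90, and the log2 ratio of mouse 4 was -4.57.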
